A study of Mus musculus with 3 samples.

Results

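Genes of the extracellular matrix and of fibroblasts were followed across mRNA arrays of mouse embryonic stem (ES) cells and of B cells and CD4 T cells from the spleen. The list held 45 gene symbols, chosen for their function and with earlier results of these data known. The shares of all genes set beside its counts are therefore no test of it. Of the 45 symbols, 43 had a probe set annotated to that symbol alone, out of 18193 genes named on the array. Fbn1 and Loxl2 had no such probe set and are not analysed here. A gene's values are those of its brightest probe set, by the mean over the 3 arrays. There was 1 array per population, so no value has a replicate error and no test was run.

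The ES cell line was B6N-22, strain C57BL/6. They grew on mouse embryonic fibroblasts that mitomycin C had stopped from dividing, in serum-containing medium with leukemia inhibitory factor. B cells, selected for B220, and CD4 T cells came from the spleens of C57BL/6 mice aged 6 to 8 weeks and were purified on magnetic beads to above 98%, per the labels. The sources used here do not give whether several animals were pooled, or whether feeder cells were taken off before RNA was extracted from the ES cells. No array of feeder fibroblasts alone was analysed here. The labels held against defining genes: the pluripotency factor gene Pou5f1 had signals of 15458.5 in ES cells, 69.0 in B and 29.2 in T cells, the B cell receptor gene Cd79b 46.5, 31707 and 1096, and the T cell receptor gene Cd3e 34.9, 28.6 and 3332.

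The extracellular matrix has a pair of main forms. Interstitial matrix, laid down mostly by fibroblasts, is built on fibrillar collagens, fibronectin and small proteoglycans. Basement membranes are thin sheets of type IV collagen, laminins, nidogen and perlecan, and are made by epithelial, endothelial and early embryonic cells as well as by fibroblasts. Embryonic feeder fibroblasts are a standard support for mouse ES cells, and they secrete both forms and carry actin stress fibres. Resting lymphocytes circulate and build little matrix of their own.

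The matrix genes were high in the ES cell array, and most were below the detection level in each lymphocyte array. The detection level was set at a signal of 95.0, the 50th percentile of all values, and anything dimmer was set to it ahead of the log2. By this definition about 50% of all probe set values lie above the level, and keeping the brightest probe set of a gene favours higher values. A detection count near that share is therefore no trait of a list. Where the dimmer array lay below the level, the fold is only a lower bound and carries the words "at least". All 43 genes were above the level in ES cells, 11 in B and 7 in T cells. All 43 also had their highest signal in ES cells, but the share of all genes that do was not computed. At least a 4-fold excess in ES cells was seen for 39 of 43 genes against T cells, where 10.2% of all measured genes passed the same rule. Against B cells it was also 39 of 43, where 10.3% of all measured genes passed. Against both at once it was 38 of 43, beside 8.79% of all genes measured in both comparisons. None of the 43 was 4-fold lower in ES cells. Their median log2 difference was 4.41 against T cells and 4.21 against B cells, where all measured genes had medians of 0.11 and 0.07. These 2 comparisons share the ES cell array, so they are not independent. In such bulk samples, more cells of a type and more RNA per cell cannot be told apart.

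**Figure D1:**
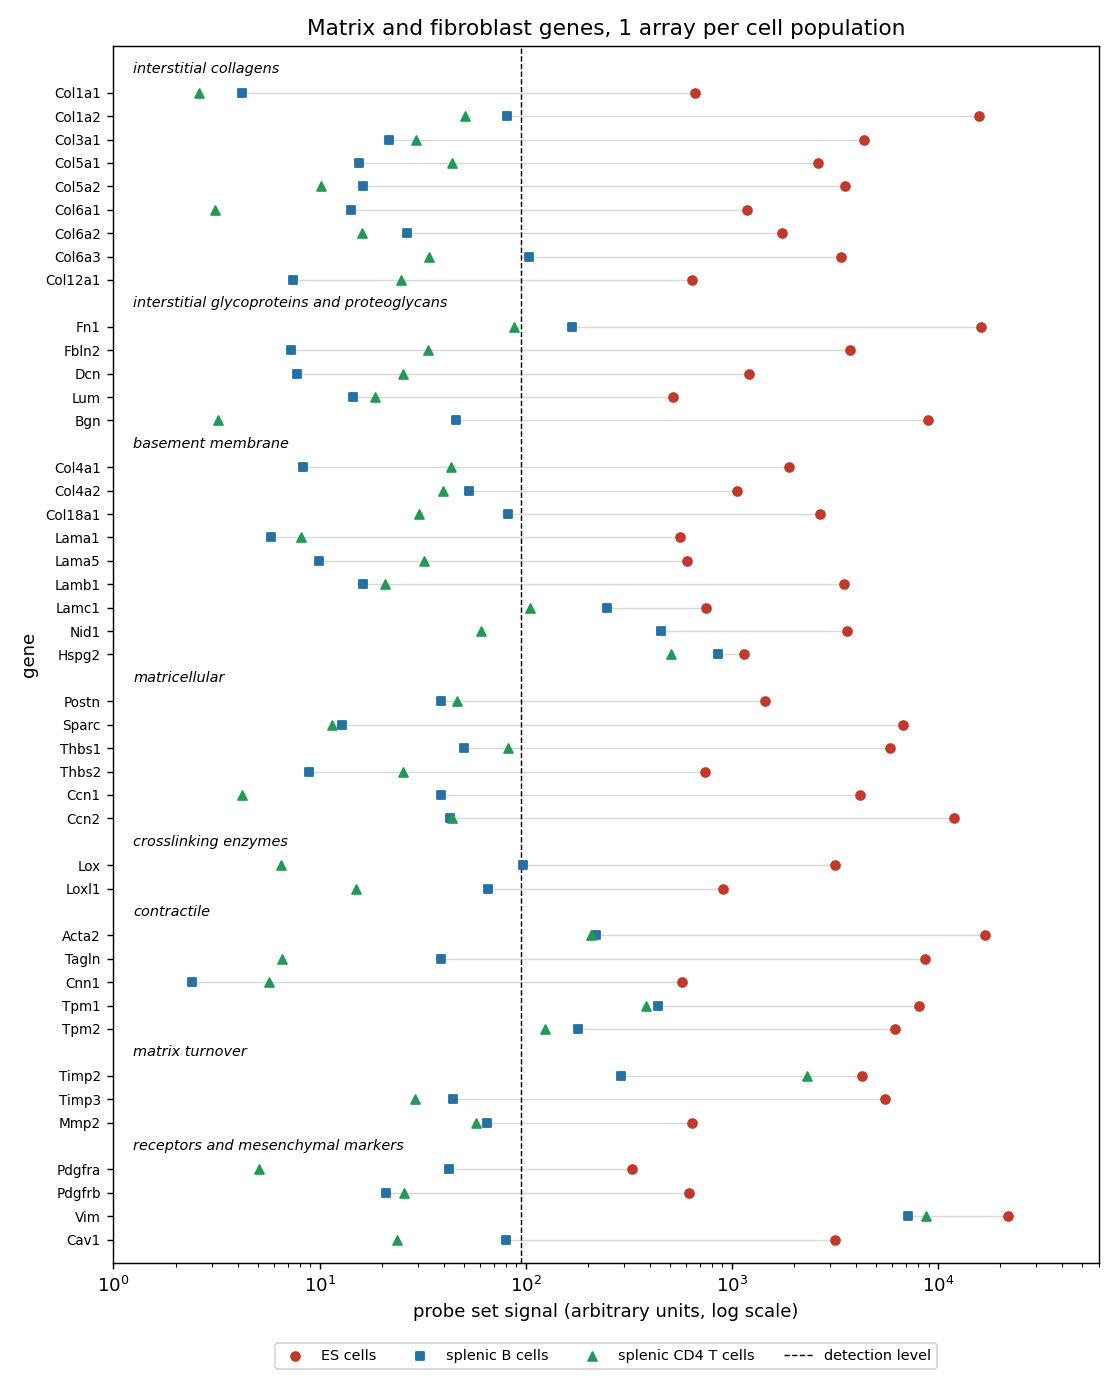
Probe set signals (arbitrary units, log scale) of the 43 matrix and fibroblast genes on the ES cell (circles), B cell (squares) and CD4 T cell (triangles) arrays, grouped by role, with the detection level of 95.0 as a dashed line and no error bars because each population had 1 array. The ES cell circle lies rightmost for every gene, and 32 genes are above the level in ES cells only.

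Interstitial collagens were all high in ES cells. By their brightest probe sets, all 9 exceeded 4-fold in ES cells over either lymphocyte array. Col1a2, a chain of the type I collagen of skin and bone, had signals of 15844 in ES cells, 80.9 in B and 50.5 in T cells, and was at least 167-fold higher in ES cells. Col1a1, its partner chain, had 664 in ES cells, 4.2 in B and 2.6 in T cells, a difference of at least 6.99-fold. Both chains were bright in 1 array and below detection in the other 2. Col3a1, a fibrillar collagen of distensible tissues, read 4356 in ES cells against 21.7 and 29.3 in B and T cells, at least 45.9-fold. Type V collagen, which controls fibril diameter, followed the same pattern, with Col5a1 at 2610 in ES cells and at most 44.1 in lymphocytes and Col5a2 at 3545 and at most 16.3. The type VI collagen chains form beaded filaments around cells. Of these, Col6a1 and Col6a2 were at least 12.4-fold and 18.5-fold higher in ES cells. Col6a3 read 3370 in ES cells, 103 in B and 34.1 in T cells, and its B cell signal lay barely above the detection level. Col12a1, which decorates fibrils, was at least 6.76-fold higher by its brightest probe set, with 642 in ES cells. Another probe set of Col12a1 read 367 in ES cells, 163 in B and 92.4 in T cells, which was 1.17 above B cells on the log2 scale. Dimmer probe sets of Col3a1 (1.5), Col5a2 (1.53) and Col5a1 (0.1) also fell short of 4-fold, as bounds against both lymphocyte arrays. A dimmer Col6a2 probe set lay 1.77 above B and 2.25 above T cells. Further probe sets of Col1a1 (2.16), Col1a2 (4.75) and Col5a1 (3.31 against T and 3.04 against B cells) passed. Where every probe set had to pass, Col1a2, Col3a1, Col5a1, Col5a2 and Col12a1 lost the call against both, and Col6a2 against B cells.

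The other interstitial genes followed the collagens, with all 5 past 4-fold in ES cells over both lymphocyte arrays. Fn1 encodes fibronectin, the adhesive glycoprotein that cells bind through integrins. Its signals were 16091 in ES cells, 167 in B and 87.6 in T cells, so ES cells stood 96.4-fold above B cells and at least 169-fold above T cells. Bgn, a small proteoglycan, read 8916.5 in ES cells, 45.7 in B and 3.2 in T cells, and its 3 probe sets lay within 6.05 to 6.55 on the log2 scale. Fbln2, a glycoprotein of elastic fibres, was at least 39.3-fold higher by its brighter probe set, and its other probe set was below detection on all arrays. The proteoglycans that bind collagen fibrils had smaller bounds, at least 12.7-fold for Dcn (1208 in ES cells) and at least 5.46-fold for Lum (519 in ES cells). Taken as 1 group of 14 genes, the interstitial genes had a median log2 difference of 4.96 against T cells and 4.90 against B cells.

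Basement membrane genes were also mostly high in ES cells. Of 9 genes, 8 were at least 4-fold higher than in T cells and 7 than in B cells, with medians of 3.48 and 3.0. Col4a1 and Col4a2, the chains of the type IV collagen network, were at least 19.9-fold and 11.1-fold higher in ES cells, with 1888 and 1057 there and at most 53.3 in lymphocytes. Col18a1, the precursor of endostatin, read 2661 in ES cells against 81.8 and 30.4 in B and T cells, and its 2 probe sets gave 4.81 and 4.59 on the log2 scale. Each of these collagens was below detection in both lymphocyte arrays. Laminins are trimers of an alpha, a beta and a gamma chain. Lama1, the alpha chain of the early embryo, read 562 in ES cells, 5.8 in B and 8.1 in T cells, at least 5.92-fold. Lama5, an alpha chain of later basement membranes and of pluripotent cells, was at least 6.39-fold higher in ES cells, and Lamb1, the common beta chain, at least 36.9-fold. A dimmer Lama5 probe set gave a bound of 1.83 on the log2 scale, short of 4-fold.

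The remaining basement membrane genes were above detection in B cells. Lamc1, the common gamma chain, had signals of 749 in ES cells, 248 in B and 104 in T cells, which put it 3.02-fold above B cells and 7.18-fold above T cells. Another Lamc1 probe set gave 1.37 against B cells and a bound of 1.77 against T cells on the log2 scale. Nid1, a nidogen that links laminin to type IV collagen, read 3619 in ES cells, 453 in B and 60.5 in T cells. That was 7.98-fold above B cells and at least 38.1-fold above T cells by its brightest probe set. Another Nid1 probe set read 311 in ES cells, 21.4 in B and 11.0 in T cells, so that the B cell signal rested on 1 probe set. Hspg2, the heparan sulfate proteoglycan perlecan, was the flattest of all 43 genes against B cells, with 1144 in ES cells, 854 in B and 508 in T cells. Its folds were 1.34 and 2.25. Its other probe set gave at least a 3.37 log2 difference against both lymphocyte arrays, with 982 in ES cells, 46.6 in B and 11.6 in T cells. The probe sets of Hspg2 therefore disagreed on whether lymphocytes had a signal at all.

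**Figure D2:**
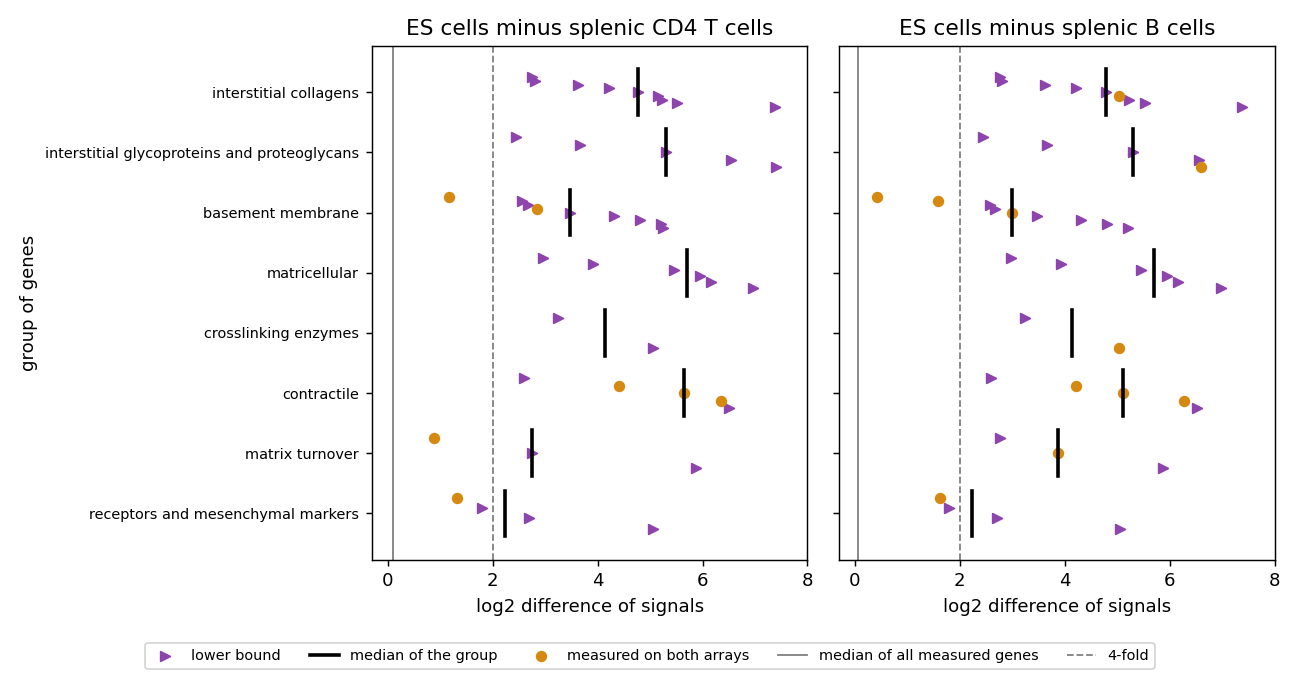
Log2 differences of signals for each of the 43 genes, by role, for ES cells minus CD4 T cells (left) and ES cells minus B cells (right). Triangles are lower bounds, circles are genes above detection on both arrays, bars are group medians, the solid grey line is the median of all measured genes and the dashed line is 4-fold. All interstitial genes lie to the right of the 4-fold line, and the basement membrane group reaches below it.

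The medians of the interstitial and basement membrane groups do not compare amounts of RNA. Against T cells, 14 of 14 interstitial and 7 of 9 basement membrane differences were lower bounds, whose size is set by the ES cell signal of that probe set and hence also by its probes. What could be counted was the share past 4-fold in both comparisons, and the genes below detection in each lymphocyte array. That share has the same limit where the lymphocyte signal was below the level. With detection at the 65th percentile, Col1a1, Col12a1 and Lum of the interstitial genes lost their calls in both comparisons. Of the basement membrane genes Lama1 and Lama5 did so too, and Lamc1 against T cells. By the brightest probe sets, 12 of 14 interstitial genes were below detection in B cells and 14 of 14 in T cells. Of the basement membrane genes it was 6 of 9 and 7 of 9. These counts depend on the probe set kept. Other probe sets of Col6a2 (219.9 in B and 157.3 in T cells), Col12a1 (163.4 in B cells) and Col5a1 (114.1 in B cells) were above the level. The other probe sets of Hspg2 and Nid1 were below it in both lymphocyte arrays.

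The same pair of forms was compared with other genes of each kind that were not among the 45. These further lists were also chosen with earlier results of these data known. Of 17 measured genes of other interstitial matrix, 9 exceeded T cells by 4-fold or more in ES cells and 1 was lower, with a median of 2.53. Over all measured genes 10.2% were higher and 10.8% lower. The greatest bounds were those of Tnc, the matricellular protein tenascin-C, at least 81.7-fold, Fstl1 at least 46.8-fold and Vcan, the large proteoglycan versican, at least 14.2-fold. Of 10 measured genes of other basement membranes, 2 were at least 4-fold higher than in T cells and none lower, with a median of 1.11. These were Nid2, the second nidogen, at least 12.7-fold with 1203 in ES cells, and Agrn, the proteoglycan agrin, 12.0-fold with 1286 in ES cells. Against B cells the counts were 9 of 17 higher for interstitial and 2 of 11 for basement membrane genes, beside 10.3% of all measured genes. The basement membrane counts were 2 genes each, not far from the all-gene shares. T cell signals were below the level for 14 of the 17 and 9 of the 10 genes, so these medians do not compare amounts of RNA either. In ES cells 16 of 19 and 10 of 19 genes of these lists were above detection.

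Matricellular genes, whose products act on cells rather than bear load, were all high in ES cells only. All 6 were at least 4-fold higher than in either lymphocyte array and none was above detection there, with a median log2 difference of 5.70 in both comparisons as a bound. Ccn2, a growth factor-binding target of the YAP and TEAD regulators, read 11908 in ES cells, 42.7 in B and 43.7 in T cells, at least 125-fold higher. Its relative Ccn1 read 4158 in ES cells, 38.9 in B and 4.2 in T cells, at least 43.8-fold, and its 4 probe sets gave log2 differences from 1.91 to 5.45. Both genes were below detection in lymphocytes by every probe set. Sparc, a collagen-binding glycoprotein, read 6790 in ES cells and 12.9 and 11.5 in B and T cells, at least 71.5-fold. Thbs1, thrombospondin-1, which activates latent TGF-beta and is also carried by platelets, read 5854.5 in ES cells, 50.2 in B and 81.9 in T cells, at least 61.6-fold. Of the 8 platelet and megakaryocyte markers on the array, 8 were above detection in B cells and 6 in T cells, and their part in any of the signals was not tested. Postn, periostin, was at least 15.2-fold and Thbs2 at least 7.83-fold higher in ES cells. Dimmer Thbs2 probe sets gave bounds of 2.89 and 1.45 on the log2 scale, the last short of 4-fold.

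Promoter sequence was available for 29 of the 45 genes, in 33 windows of RefSeq (build GRCm38.p6) that run from 250 bases before to 50 bases after an annotated start. Short words were searched on both strands. CATTCC, the core word of TEAD sites, was in the windows of 7 of the 29 genes, namely Acta2, Ccn1, Col18a1, Col3a1, Col6a2, Nid1 and Tpm1, that is in 7 of 33 windows, and in 14.7% of all 32851 windows. TATAAA, the core word of TATA boxes, was in 6 of 33 windows and in 13.6% of all windows, at any position. In Ccn1, Postn and Vim it began 25, 26 and 32 bases before the start. In Col3a1 it began 117 bases before the start, and in Cav1 and Thbs2 it lay on the opposite strand. The CArG box, bound by serum response factor, was searched in its strict form only, which is CC, then 6 bases that are each A or T, then GG. This form was in 0 of 33 and in 1.63% of all windows. Forms that depart from it by a base, such as those known from the Acta2 promoter, were not counted, so the 0 does not mean that these promoters lack CArG boxes. The 250 bases before the start are shown for a matricellular, a contractile and a collagen gene that hold the TEAD word, with matches to either word in capitals and CATTCC on the opposite strand appearing as GGAATG. Ccn1 lies at chr3:145649986-145650235 on the minus strand, where the annotation also has the noncoding RNA Gm17501, Acta2 at chr19:34255374-34255623 on the minus strand and Col3a1 at chr1:45311288-45311537 on the plus strand.
Ccn1: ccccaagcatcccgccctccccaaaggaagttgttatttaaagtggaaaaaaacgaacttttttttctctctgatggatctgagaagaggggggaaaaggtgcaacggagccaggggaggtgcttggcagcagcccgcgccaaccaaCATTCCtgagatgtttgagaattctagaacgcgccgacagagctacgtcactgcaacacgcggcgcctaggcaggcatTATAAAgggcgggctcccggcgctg
Acta2: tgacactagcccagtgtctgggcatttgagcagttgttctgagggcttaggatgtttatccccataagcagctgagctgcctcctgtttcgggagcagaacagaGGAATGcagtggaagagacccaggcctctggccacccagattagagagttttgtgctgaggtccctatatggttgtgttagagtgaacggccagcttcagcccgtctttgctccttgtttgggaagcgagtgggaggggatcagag
Col3a1: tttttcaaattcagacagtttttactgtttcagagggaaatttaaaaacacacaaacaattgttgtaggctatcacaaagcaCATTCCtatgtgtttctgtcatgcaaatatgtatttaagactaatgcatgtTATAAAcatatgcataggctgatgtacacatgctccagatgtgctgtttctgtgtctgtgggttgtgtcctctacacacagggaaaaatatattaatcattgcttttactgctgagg
In Ccn1 the TEAD word lies 103 to 98 bases and TATAAA 25 to 20 bases before the start. In Acta2 the TEAD word lies 146 to 141 bases before it, and in Col3a1 the words lie 168 to 163 and 117 to 112 bases before it. A match in these windows is a description and not a measured site.

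The enzymes that crosslink collagen and elastin were high in ES cells. Lox, lysyl oxidase, read 3160 in ES cells, 96.5 in B and 6.5 in T cells, 32.7-fold above B cells and at least 33.3-fold above T cells. Loxl1, its relative of elastic fibres, was at least 9.47-fold higher in ES cells, with 900.1 there, 65.9 in B and 15 in T cells. Another Loxl1 probe set read 98.9 in ES cells, a bound of only 0.06 on the log2 scale. The enzymes and chaperones that fold and trim collagen inside the cell gave a mixed picture. Of 13 such genes, 6 passed 4-fold in ES cells over T cells and 7 over B cells, beside 10.2% and 10.3% of all measured genes. None was 4-fold lower, and the medians were 1.75 and 2.30. The greatest differences were those of Pcolce, an enhancer of procollagen cleavage, at least 50.7-fold and the collagen chaperone Serpinh1 at least 30.4-fold higher. Plod2, a collagen lysyl hydroxylase, was at least 9.85-fold and Crtap, a subunit of the prolyl 3-hydroxylase complex, 7.94-fold above T cells. Other enzymes that act on collagen, named after their values were seen, were divided. P4ha2 and Bmp1 passed, at least 6.71-fold and 4.92-fold above T cells. P3h1 (at least 3.37-fold), Plod3 (3.09-fold), P4ha1 (1.9-fold), Plod1 (1.5-fold) and Colgalt1 (1.23-fold) did not, and Colgalt1 was 1.87-fold lower in ES than in B cells. Genes of the list with general roles in protein folding, named after their values were seen, were detected everywhere: P4hb read 9024 in ES cells, 4285 in B and 4174 in T cells, and Ppib 9780, 8747 and 8102.

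Contractile genes, which mark stress fibres and smooth muscle, were all past 4-fold in ES cells over both lymphocyte arrays. Acta2, smooth muscle actin, read 16854 in ES cells, 218 in B and 207 in T cells, 77.3-fold and 81.3-fold higher. That value rests on 1 of its 3 probe sets, of the kind that can match more than 1 transcript, and the other 2 were below detection on all arrays. Tagln, the actin-binding protein transgelin, read 8671 in ES cells, 38.7 in B and 6.6 in T cells, at least 91.3-fold. Cnn1, calponin, was at least 6.04-fold higher from a signal of 574 in ES cells. The tropomyosins, which stabilise actin filaments in most cells, were detected in all 3 arrays by their brightest probe sets. Tpm1 read 8094 in ES cells, 437 in B and 382 in T cells, 18.5-fold and 21.2-fold higher. Tpm2 read 6184, 179 and 124 in the same order, 34.5-fold and 49.7-fold higher. A dimmer Tpm1 probe set gave 1.73 against T and 1.7 against B cells on the log2 scale, and another passed at 3.77 and 3.46. For Tpm2 a dimmer probe set gave only 0.84 and 0.8. Further Tpm2 probe sets passed with bounds of 4.84 and 2.52 and were below detection in both lymphocyte arrays.

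Inhibitors and enzymes of matrix turnover split. Timp3, an inhibitor of matrix proteases that stays bound to the matrix, exceeded both others in ES cells by at least 58.5-fold, with 5557 in ES cells, 44.4 in B and 29.0 in T cells. Dimmer Timp3 probe sets gave bounds of 5.31, 3.51 and 1.79 on the log2 scale, the last short of 4-fold. Mmp2, a gelatinase, was at least 6.77-fold higher, with 643 in ES cells. Timp2, an inhibitor that also takes part in activating Mmp2, read 4278.5 in ES cells, 290.2 in B and 2312 in T cells. It was 14.7-fold above B cells and 1.85-fold above T cells.

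The receptors and mesenchymal markers had a median of 2.24 in both comparisons, with 2 of 4 at least 4-fold higher in each. Cav1, the coat protein of caveolae, read 3171 in ES cells, 80.2 in B and 23.8 in T cells, at least 33.4-fold. Pdgfrb, the growth factor receptor of fibroblasts and pericytes, was at least 6.49-fold higher from 616 in ES cells. Another Pdgfrb probe set gave a bound of only 0.48 on the log2 scale. Pdgfra, its relative on embryonic mesenchyme and on primitive endoderm, read 328 in ES cells, 42.5 in B and 5.1 in T cells, a bound of 3.45-fold, short of the 4-fold rule. Vim, the intermediate filament of mesenchymal cells and of leukocytes, was bright everywhere, with 21921 in ES cells, 7138 in B and 8743 in T cells. Its folds were 3.07 and 2.51, and by its other 2 probe sets the log2 differences ranged from 0.47 to 1.13.

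Markers of cells that the ES cell sample could hold were read from the same array. Of 14 measured genes of the fibroblast lineage, 7 passed 4-fold in ES cells over T cells, with 1 lower, and 7 and 1 against B cells. The median was 1.91 in both. Over all measured genes 10.2% were higher and 10.8% lower against T cells, and 10.3% and 9.85% against B cells. Pdpn, podoplanin, read 2717 in ES cells, 103 in B and 34.0 in T cells, and Cdh11, the cadherin of mesenchymal cells, 1816, 0.8 and 22.9. The mesenchymal transcription factor gene Snai2 read 904 in ES cells, 42.2 in B and 29.2 in T cells. Prrx1 and Twist2, further such factors named after their values were seen, read 860 and 749 in ES cells and at most 77.0 in lymphocytes. Other genes of the list ran the other way: Nt5e, the ectoenzyme CD73, was 11.8-fold higher in T than in ES cells, Zeb2 6.55-fold higher in B than in ES cells, and Axl and Zeb1 were 3.2-fold and 1.91-fold higher in T than in ES cells, the last 3 of these also named after their values were seen. In ES cells 14 of 16 genes of this list were above detection, with none at 0, and their summed signal was 10627 in ES cells, 4110 in B and 6072 in T cells.

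Extraembryonic endoderm, a lineage that arises in ES cell cultures and makes laminin and type IV collagen, was read from 15 genes, of which 11 were above detection in ES cells and none at 0. Their summed signals were 5036 in ES cells, 26429 in B and 20497 in T cells, and Srgn, a proteoglycan of blood cell granules, made up 25382 and 19055 of the lymphocyte sums. Against T cells, 2 of 13 measured genes passed 4-fold upward in ES cells and 2 downward, with a median of 0.65. These counts were near the shares of all measured genes, 10.2% upward and 10.8% downward. Fst, follistatin, was at least 22.6-fold and Plat at least 5.81-fold higher, and Srgn and Afp, alpha-fetoprotein, were the lower ones. The remaining genes are named after their values were seen. The transcription factor genes of the list read 51.3 for Foxa2, 84.9 for Gata4, 97.7 for Sox17, 102.7 for Hnf4a, 141.4 for Sox7 and 243 for Gata6 in ES cells. The endocytic adaptor Dab2 and the receptors Lrp2 and Cubn read 337, 349 and 149 there, at least 3.55-fold, 3.67-fold and 1.57-fold above both lymphocyte arrays. All 10 pluripotency genes were above detection in the same array, with a summed signal of 108453. The part of fibroblasts or of endoderm in the ES cell signals was not tested.

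**Figure D3:**
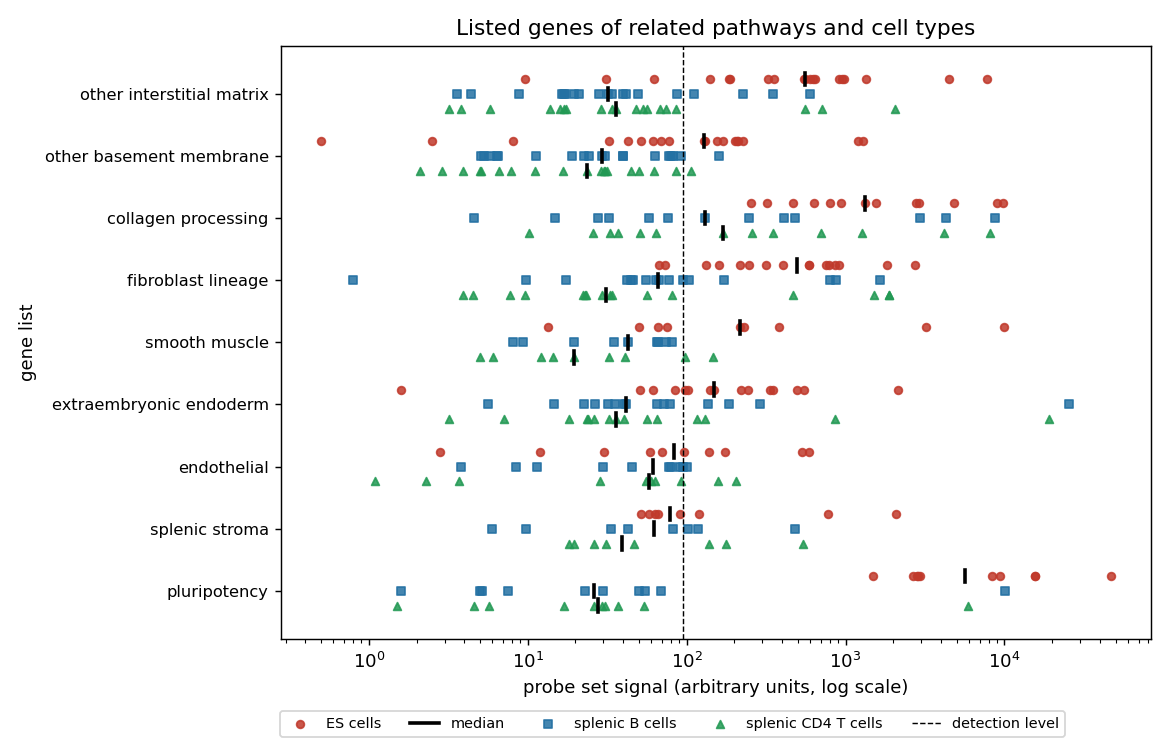
Probe set signals (arbitrary units, log scale) of listed genes outside the 45, by list, for ES cells (circles), B cells (squares) and CD4 T cells (triangles), with bars at the list medians and the detection level of 95.0 dashed. In ES cells the median is 494.7 for the fibroblast lineage, 149.1 for extraembryonic endoderm and 83.4 for endothelial genes.

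Between the lymphocyte arrays only 11 of the 43 genes could be measured. At least a 4-fold difference was seen for 2 of them, 1 in each direction, where 2.49% of all measured genes were higher in T cells and 1.85% higher in B cells. Timp2 was 7.97-fold higher in T cells, and 3 further probe sets gave log2 differences of 2.80, 2.48 and 1.06, while a probe set close to the detection level gave -0.21. Nid1 was at least 4.77-fold higher in B cells by its brightest probe set and below detection in both arrays by its others. The other 9 lay between -1.25 (Lamc1) and 0.29 (Vim) on the log2 scale, with 8 of the 9 below 0.

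Macrophage markers moved between the same arrays. All 15 were above detection in both and higher in T cells, by 1.03 to 1.73 on the log2 scale with a median of 1.29, and their summed signal was 33443 in B cells and 80927 in T cells, with none at 0. The difference of Timp2 was 2.99 on that scale, above that of each of the 15, and those of the other 10 measured genes were below all of them. The part of such cells in the Timp2 signal was not tested. Of 8 splenic stroma markers 3 were above detection in B cells and the same number in T cells, with summed signals of 875 and 995.

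**Figure D4:**
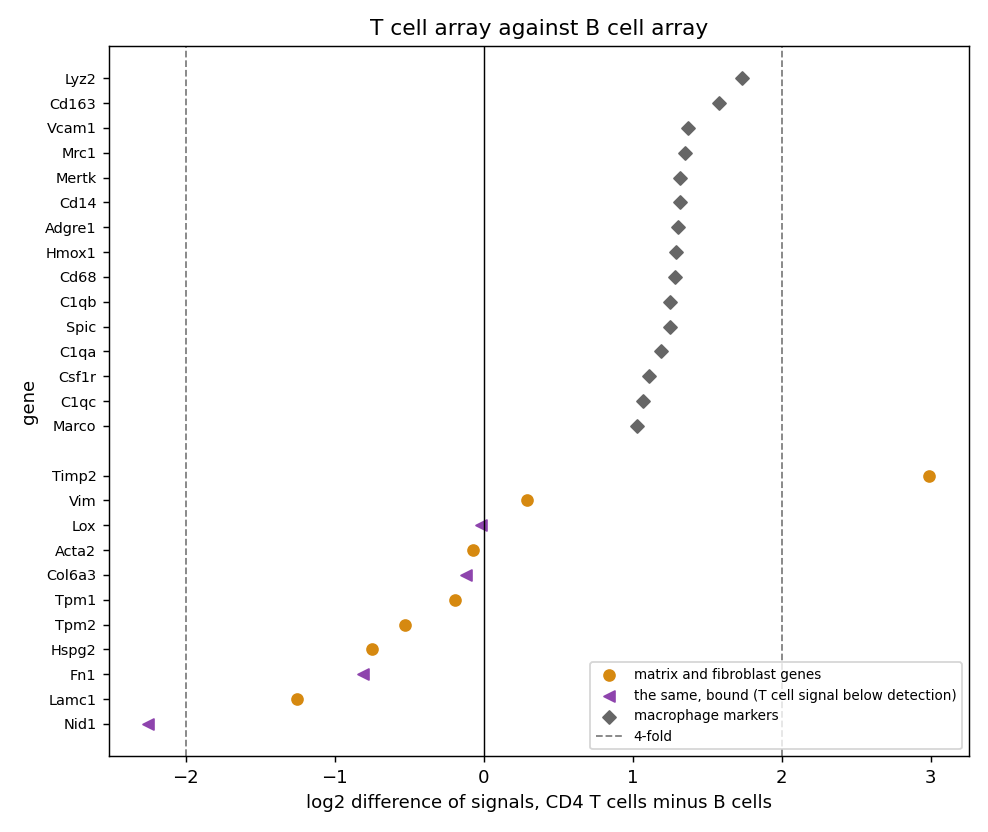
Log2 differences of signals, CD4 T cells minus B cells, for the 11 matrix and fibroblast genes above detection in at least 1 of these arrays and for 15 macrophage markers (diamonds). Triangles are bounds where the T cell signal was below detection, and dashed lines mark 4-fold. Timp2 lies at 2.99, to the right of all macrophage markers, and Nid1 at -2.25.

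The agreement of probe sets within a gene was the only error that could be read from these data. Of the 43 genes, 33 had several probe sets, 103 in all for the 43, and 16 of the 103 were below detection on all arrays. Among the 29 genes with several probe sets that were called against T cells, 15 were at least 4-fold higher by every probe set above detection on some array, and none had such probe sets of opposite sign. Against B cells it was 14 of 29, and Timp2 had a probe set of opposite sign. Counting only genes whose every probe set passed, undetected ones included, left 18 of 43 against T cells and 17 against B cells, where 5.39% and 5.45% of all measured genes passed. Both counts include the 10 genes with 1 probe set, which show no agreement between probe sets. Of the 29 called genes with several, 8 passed against T cells and 7 against B cells. Over all genes the 2 brightest probe sets of a gene were compared. The SD of their disagreement was divided by the square root of 2, to give that of a single probe set. On the log2 scale this SD was 0.77 for ES cells against T cells, 0.76 for ES cells against B cells and 0.40 for T cells against B cells. The disagreement between 2 probe sets is larger by that factor. This SD reflects the probes and says nothing of the spread between cultures or animals.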

How the data were processed

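The deposited table holds linear intensity values of 45037 probe sets on 3 arrays. Affymetrix Expression Console made them, per the submitters' processing notes. The sources used here do not give its version, summarization or background steps. Trimmed by 2%, the column means were 497.3 (ES), 497.8 (B) and 497.7 (T), as arrays scaled to a common mean would have, so a general change in mRNA content cannot be seen. Total RNA had been extracted with Trizol and labelled with a GeneChip 3' IVT kit, per the labels' protocols. Precision is limited by the number of arrays.

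Names came from GEO's platform annotation and RefSeq gene IDs (GRCm38.p6): 34945 had 1 symbol, 932 several and 9160 none. A gene counted as measured if either array exceeded the detection level, and was called at 4-fold if the brighter one did. The 45 genes and the 13 further lists (170 entries, 10 without a probe set) were chosen with earlier results of these data known. All members are named, with at most 4 genes per further list by greatest difference, and Pou5f1, Cd79b and Cd3e. Other genes are marked as named after their values were seen. The alternatives tried were no floor with 16 added, quantile normalization, scaling to the 75th percentile, detection at the 65th or 35th percentile, the median of probe sets, a call by every probe set, and 2-fold. Python 3.11.15, numpy 2.4.6 and pandas 2.3.3 were used.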

Additional observations from a re-analysis of the deposited data

How the results depend on the processing

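No paired analysis was possible because each population had 1 array. Quantile normalization and scaling to the 75th percentile shifted the all-gene median for ES cells minus T cells from 0.11 to 0.26 and 0.42. Under both, no member call was lost and Pdgfra was gained in both ES cell comparisons. Where every probe set had to pass, 18 genes were higher in ES cells than in T cells, 17 than in B cells, 17 than in both, and 0 differed between T and B cells. The counts for ES cells include the 10 genes with 1 probe set. Over all measured genes, 5.39% passed this rule against T cells and 5.45% against B cells. The T against B count was also 0 by the median of probe sets and 1 with detection at the 65th percentile, where Nid1 was lost. At that level the counts against T cells, B cells and both were 28, 29 and 28 of 43. Over all measured genes, 7.87% passed there against T cells and 8.12% against B cells. Of the 43, 11 and 10 dimmer genes such as Col1a1, Lum and Lama1 were lost against T and B cells. Medians of lower bounds moved with the level. For interstitial genes they were 3.60 against both T and B cells at the 65th percentile, 6.01 against T cells at the 35th, 6.02 and 6.03 with no floor, and 3.34 against both by the median of probe sets. For basement membrane genes they were 2.11 against both at the 65th percentile, 4.52 against T cells at the 35th, 4.58 and 4.59 with no floor, and 2.57 against T cells by the median of probe sets. By that median Acta2, Nid1, Dcn, Col12a1, Lama5, Loxl1 and Pdgfrb lost their calls against both. Of 582 recomputed differences of single genes, 0 reversed a called direction and 245 moved by more than the probe set SD. Only differences with a call could count as reversed. Where the dimmer signal was set to the level, a change of sign was hardly possible, so the 0 says little.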

Other observations

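Smooth muscle genes outside the 45 were divided, with 5 of 9 above detection in ES cells. Cald1, caldesmon, read 9960 in ES cells, 66.3 in B and 32.6 in T cells, and Myl9, a myosin light chain, 3231, 81.1 and 97.7. Both proteins also occur in fibroblast stress fibres. Actg2, the enteric smooth muscle actin, read 384 in ES cells, at least 4.05-fold above B cells and 2.63-fold above T cells. The rest of the list is named after its values were seen. Des, desmin, and Smtn, smoothelin, read 230.0 and 217 in ES cells, short of the 4-fold rule, while Myh11 (75.7), Myocd (13.4), Lmod1 (65.7) and Synpo2 (49.9) were below detection.

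Of 10 endothelial genes 5 were above detection in ES cells, where the level is the 50th percentile of all values. Egfl7, a secreted factor of endothelial cells, read 589 there and was at least 6.2-fold above both lymphocyte arrays. Esam, an adhesion molecule, read 534 in ES cells, 5.32-fold above B cells and 2.6-fold above T cells. Tek and Kdr, the angiopoietin and VEGF receptors, read 175 and 138 in ES cells and did not reach 4-fold. Cldn5 (96.7) and the undetected Cdh5, Tie1, Emcn, Vwf and Erg are named after their values were seen.

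Col14a1, a fibril-associated collagen outside the 45 that is named after its values were seen, ran opposite to the interstitial collagens among them. It read 62.3 in ES cells, 350 in B and 715 in T cells, at least 7.52-fold above ES cells in T cells.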
